A study of Mus musculus with 6 samples.

Results

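Collagens are the proteins of tough fibrils and of the sheet-like basement membranes. Their genes were picked from hippocampal arrays of 3 Ahr-KO and 3 wild-type mice as all probe sets that the platform annotation pairs with exactly 1 gene symbol made of Col, a number, a and a number. This gave 47 probe sets of 44 genes, of 22180 genes measured, and the brightest probe set of each gene was used. By the type of structure their proteins build, 11 genes are fibrillar, 8 belong to basement membranes and 25 are of other types. Ahr-KO mice are labelled as knockouts of Ahr, the gene of the aryl hydrocarbon receptor, and were compared with wild-type mice. No treatment is named, and each array holds the hippocampus RNA of 1 mouse from a dissected hemibrain. The labels give no age, sex, strain or structure of the Ahr allele. Values are log2 signals made by RMA, a method that corrects, normalizes and summarises the probes of each probe set.

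A collagen molecule is a triple helix of chains, each with a regularly repeated glycine. Fibrillar collagens assemble into banded cables that resist stretch, and type IV collagens form the network in which the laminins of a basement membrane are anchored. Adult brain tissue has little fibrillar matrix between its neurons. Its collagens lie mostly in the meninges, in the stroma of the choroid plexus, around larger vessels and in the basement membrane shared by endothelial cells, pericytes and astrocyte end feet, while a few membrane-bound or fibril-associated collagens are made by neurons.

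No collagen gene differed between the genotypes past the threshold. With limma, a moderated test fitted over all genes, 0 of the 44 had a Benjamini-Hochberg adjusted p under 0.05, the share over all genes being 0%, and the lowest adjusted p of a collagen was 0.794. At an unadjusted p under 0.05, 3 collagens were higher in Ahr-KO (6.82%), against 3.53% of all genes, and 0 were lower, against 2.65%. These 3 were Col1a1, Col7a1 and Col28a1, counted by the brightest probe set of each gene. Dimmer probe sets, left out of the count, differed by 0.30 log2 for Col5a1, -0.0074 for Col1a2 and -0.13 for Col6a1. The count higher was 1 without Ahr-KO array 1, wild-type array 2 or wild-type array 3 and 0 without Ahr-KO array 2, and without Ahr-KO array 3 there was 1 lower, Col6a4. When the variance was allowed to follow the mean signal, 2 genes passed among all, none of them a collagen, and Col1a1 alone of the collagens had an unadjusted p under 0.05. For 43 of the 44 genes the 95% interval of the difference lay within 0.5 log2 of zero, the exception being Col8a1. These intervals were taken gene by gene from array signals and are not adjusted for the number of genes, so they set no joint bound. In RNA of a whole hippocampus, fewer cells of a type and less RNA per cell cannot be told apart.

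Small differences leaned towards higher values in Ahr-KO, and over the 44 genes together this lean was not seen without Ahr-KO array 1. The mean was higher in Ahr-KO for 34 of 44 collagens (77.3%), against 50.7% of all genes. Without Ahr-KO array 1 it was higher for 21 of 44 (47.7%), against 51.5% of all genes. Without both that array and wild-type array 2 it was higher for 22 of 44 (50%), against 51.8%. Ahr-KO array 1 had the highest mean collagen signal, so leaving it out was bound to lower the Ahr-KO average. Wild-type array 2 had the lowest, so leaving out both was bound to lower the mean difference too. The fibrillar class still had a higher mean for 8 of 11 genes without Ahr-KO array 1 alone. For 7 collagens (15.9%) each Ahr-KO array read above each wild-type array, against 6.18% of all genes, and for 0 each read below, against 5.75%. The median difference was 0.05 log2 over the 44 genes and 0.0019 over all genes. The median size of the difference, in either direction, was 0.07 log2 for collagens and 0.07 for all genes, and the median within-genotype standard deviation was 0.11 for both. Among the 44, 33 averaged below the median signal of the genes measured (6.50 log2). Brightness also depends on the probes, so such a rank of signals over different probe sets is no rank of RNA amounts.

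**Figure D1:**
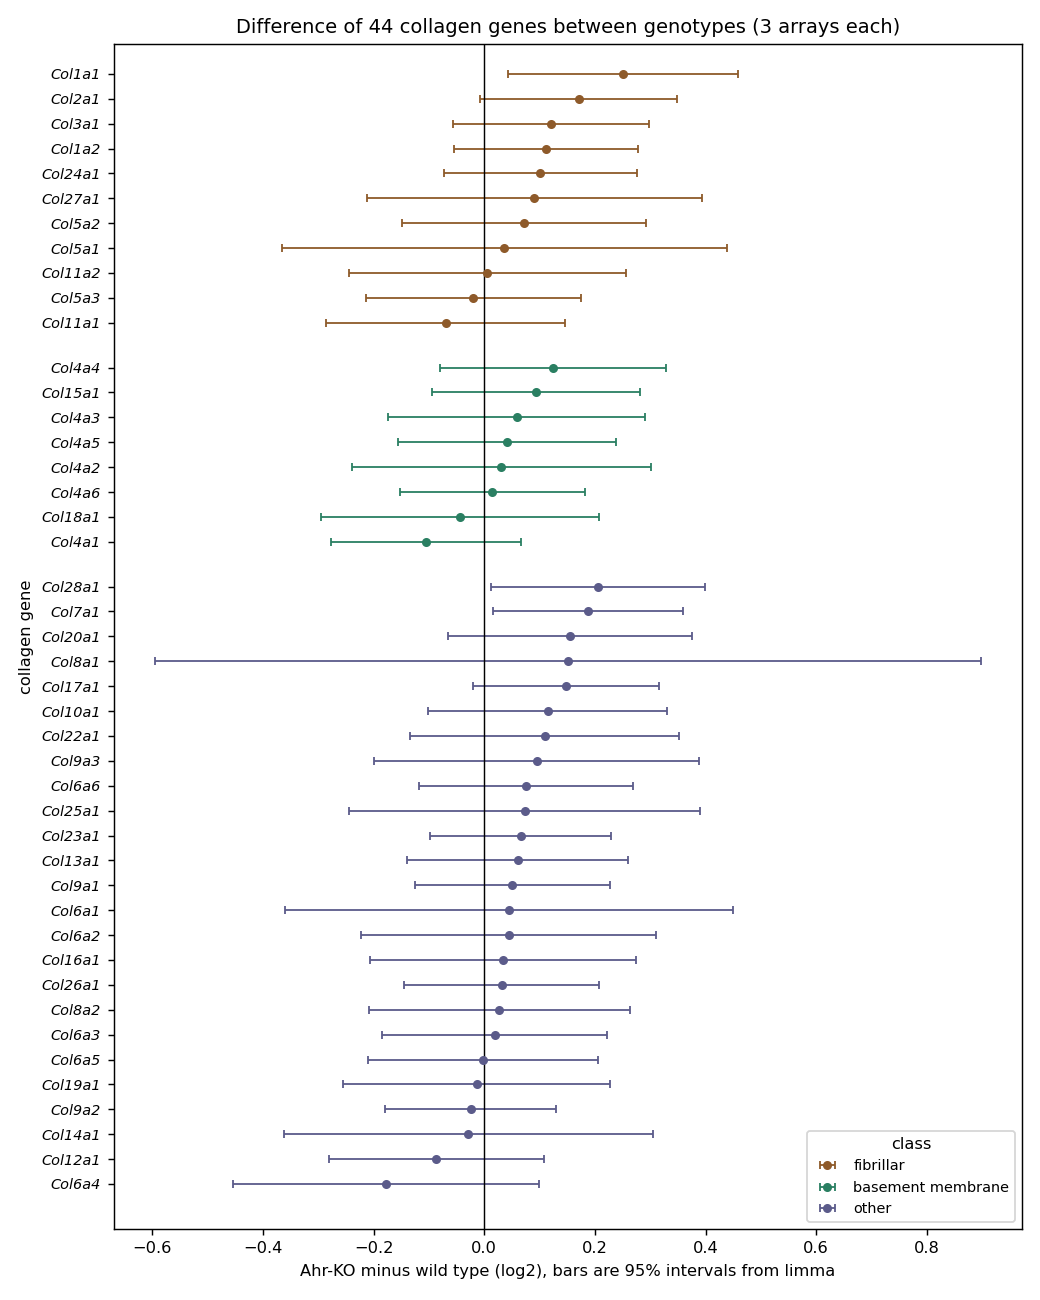
Difference of each of the 44 collagen genes between genotypes in log2 units, Ahr-KO minus wild type, with 95% intervals from limma as bars (3 arrays each) and the classes in colours. With all 6 arrays, 34 of the 44 points lie right of 0, the intervals of Col1a1, Col7a1 and Col28a1 leave out 0 before adjustment, and Col8a1 has the widest interval.

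A pair of single arrays stood out among the collagens. Ahr-KO array 1 had the highest value of the 6 arrays for 19 of 44 collagens (43.2%), although it was highest for 16.2% of all genes. Wild-type array 2 had the lowest value for 17 of 44 (38.6%), although it was lowest for 16.1% of all genes. With each gene's mean over the 6 arrays subtracted, the mean over the 44 collagens was 0.11, 0.0059 and -0.03 log2 on Ahr-KO arrays 1 to 3, against 0.03, -0.06 and -0.05 on wild-type arrays 1 to 3. The highest array was thus an Ahr-KO array and the lowest a wild-type array, while the other 4 did not sort by genotype. The classes also followed different arrays. Ahr-KO array 1 was highest for 6 of the 8 basement membrane genes and 12 of the 25 other types but for 1 of the 11 fibrillar genes, whereas wild-type array 2 was lowest for 8 of the 11 fibrillar genes and for 0 of the 8 basement membrane genes.

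These are also the arrays with the highest choroid plexus marker signal. The choroid plexus is the secretory tissue that lies beside the hippocampus in the ventricle, and 11 of its 13 listed epithelial markers were measured. At an unadjusted p under 0.05, 0 of them were higher and 0 lower, against 3.53% and 2.65% of all genes. The sum of their signals on the linear scale ranged from 1104 to 11039 over the Ahr-KO arrays and from 1099 to 7798 over the wild-type arrays, and it peaked on array 1 among Ahr-KO mice and on array 2 among wild-type mice. Ttr, the transthyretin gene, read 13.15, 9.06 and 8.64 log2 on Ahr-KO arrays 1 to 3, against 8.90, 12.64 and 9.03 on wild-type arrays 1 to 3. It made up most of the sum on the choroid-rich arrays. Those arrays held the highest 2 values for 11 of 11 markers, though Aqp1 barely differed between wild-type arrays 2 and 3 (6.0412 and 6.0405). The log2 scale has no zero, and the lowest mean of a choroid plexus marker was 4.89. The part of choroid plexus tissue in the collagen values was not tested, and values without both arrays are given beside each class median and each collagen whose sign they turn. Such values cannot test it, since these arrays also had the highest and the lowest mean over the 44 collagens. Of 8 hippocampal neuron markers 6 had a higher and 2 a lower mean in Ahr-KO, with a median difference of 0.14 log2, larger than that of any collagen class. At an unadjusted p under 0.05, 0 of them were lower and 1 was higher (12.5%, against 3.53% of all genes), namely Prox1 of granule cells. Prox1 differed by 0.28 ± 0.10 (SE, limma adjusted p = 0.797) and overlapped between genotypes, and Wfs1 of pyramidal cells differed by -0.37 ± 0.19 (SE). Whether neuron content played a part in the collagen values was not tested. Camk2a, a kinase of excitatory neurons, was at 12.23 ± 0.05 log2 in Ahr-KO and 12.23 ± 0.02 in wild type (SD, n = 3 each). The targeted gene Ahr averaged 6.76 ± 0.15 in Ahr-KO and 7.54 ± 0.12 in wild type (SD, n = 3 each), with no overlap, a difference of -0.78 ± 0.10 (SE; limma adjusted p = 0.320).

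**Figure D2:**
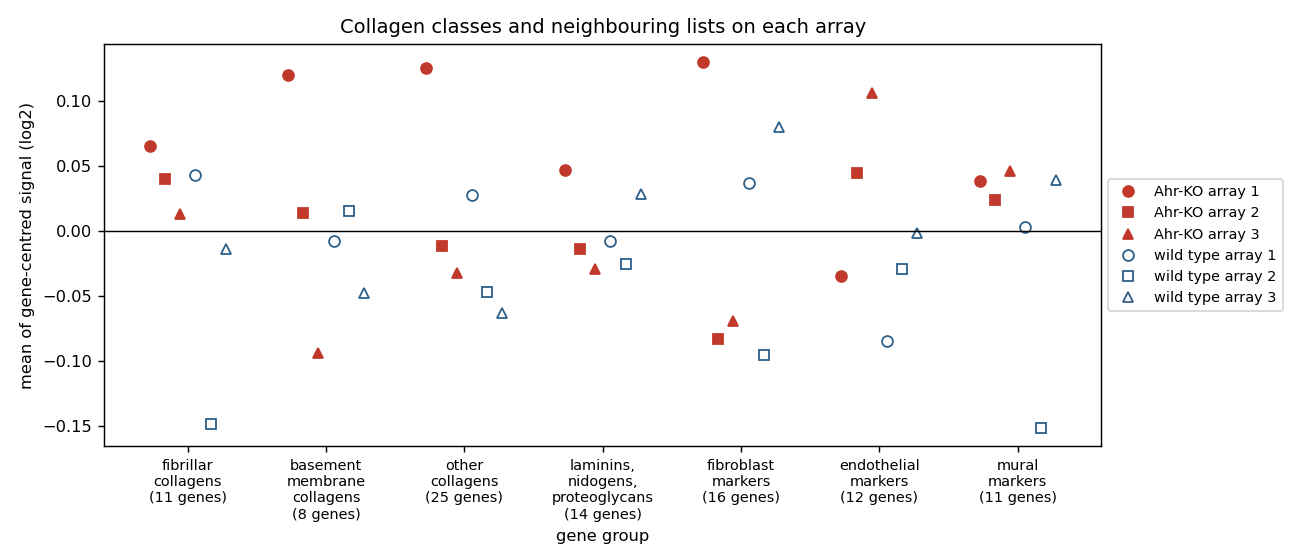
Mean of gene-centred log2 signals on each array for the 3 collagen classes and 4 neighbouring lists, with Ahr-KO arrays as filled and wild-type arrays as open symbols. Ahr-KO array 1 lies above all other arrays for each collagen class, wild-type array 2 lies lowest for the fibrillar class and for mural markers (-0.15 each), and the genotypes overlap in all 7 groups shown.

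Fibrillar collagens had a median difference of 0.09 log2, with a higher mean in Ahr-KO for 9 of 11 genes. At an unadjusted p under 0.05, 1 gene was higher (9.09%, against 3.53% of all genes), and 0 passed the adjusted threshold. Type I collagen, the main fibril of connective tissue and of the meninges, is built from the chains of Col1a1 and Col1a2. Col1a1 read 7.31, 7.32 and 7.10 log2 on Ahr-KO arrays 1 to 3, against 7.01, 6.89 and 7.08 on wild-type arrays 1 to 3. Every Ahr-KO array lay above every wild-type array, but Ahr-KO array 3 and wild-type array 3 were only a little apart. The difference was 0.25 ± 0.09 log2 (SE), or 1.19-fold (limma, unadjusted p = 0.0237, adjusted p = 0.794), and 0.17 without both choroid-rich arrays. Col1a2 read 6.95, 7.02 and 6.89 in Ahr-KO, against 6.89, 6.82 and 6.82 in wild type, again narrowly without overlap, with a difference of 0.11 ± 0.07 (SE; limma adjusted p = 0.841). A dimmer probe set of Col1a2, with a mean of 3.59 log2, differed by -0.0074, at a signal below the lower quartile of all genes (4.82).

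Type III collagen, which mixes with type I in vessel walls and loose tissue, is made from Col3a1 alone. Its values were 6.22, 6.27 and 6.13 log2 in Ahr-KO, against 6.01, 6.13 and 6.13 in wild type. The lowest Ahr-KO value was above the highest wild-type value by less than the rounding, and the difference was 0.12 ± 0.08 (SE; limma adjusted p = 0.838). Col2a1, the chain of cartilage collagen, read 6.13, 6.24 and 6.17 in Ahr-KO, against 6.04, 5.91 and 6.08 in wild type. The genotypes did not overlap and the difference was 0.17 ± 0.08 (SE; limma adjusted p = 0.813), at a signal under the median of all genes. With 1 array left out, the size of the difference ran from 0.20 to 0.32 for Col1a1, 0.08 to 0.14 for Col1a2, 0.12 to 0.20 for Col2a1 and 0.08 to 0.16 for Col3a1. Their direction could not turn in that check, since the genotypes do not overlap.

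For Col5a1 and Col27a1 the wild-type arrays were far apart. Types V and XI are the thin collagens that start a fibril and set its width. Col5a1 read 6.58, 6.61 and 6.67 log2 in Ahr-KO, against 6.99, 6.19 and 6.57 in wild type. Ahr-KO mice were close together while wild-type arrays 1 and 2 lay at opposite ends, with a difference of 0.04 ± 0.18 (SE), or -0.14 without both choroid-rich arrays. The dimmer probe set of Col5a1 differed more, at 5.53, 5.46 and 5.37 in Ahr-KO, against 5.22, 5.11 and 5.13 in wild type. There the genotypes did not overlap and differed by 0.30 ± 0.08 (SE; limma adjusted p = 0.782 over all probe sets with 1 symbol). Col27a1, a collagen of cartilage and nerve, showed the pattern of the brighter Col5a1 probe set, with 6.91, 6.84 and 6.81 in Ahr-KO, against 7.005, 6.45 and 6.83 in wild type. Its difference was 0.09 ± 0.13 (SE), -0.06 without wild-type array 2 and -0.09 without both choroid-rich arrays. Col5a2, Col5a3, Col11a1, Col11a2 and Col24a1 differed by -0.07 to 0.10, all with overlap between the genotypes, and Col5a2 and Col11a2 turned to -0.0576 and -0.1134 without both choroid-rich arrays.

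The fibrillar median rests on wild-type array 2. Without that array it was 0.0125 log2, below the basement membrane median of 0.0558 and the other types' 0.0448, so the order of the classes also rests on it. Without both choroid-rich arrays the fibrillar median was -0.0020, with a higher mean in Ahr-KO for 5 of 11 genes. These were the highest Ahr-KO array and the lowest wild-type array for the fibrillar genes. Leaving out either or both was thus bound to lower the difference averaged over these genes, whatever their choroid signal. With each gene's mean subtracted, the fibrillar genes averaged 0.07, 0.04 and 0.01 log2 on Ahr-KO arrays 1 to 3, against 0.04, -0.15 and -0.01 on wild-type arrays 1 to 3. The markers of mural cells, the pericytes and smooth muscle cells of vessel walls, were lowest on the same array, at 0.04, 0.02 and 0.05 in Ahr-KO, against 0.0033, -0.15 and 0.04 in wild type. All 11 mural markers were measured, and their summed linear signal was 3358 to 3746 in Ahr-KO and 3287 to 3598 in wild type. Whether vessel wall content played a part in the fibrillar values was not tested.

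**Figure D3:**
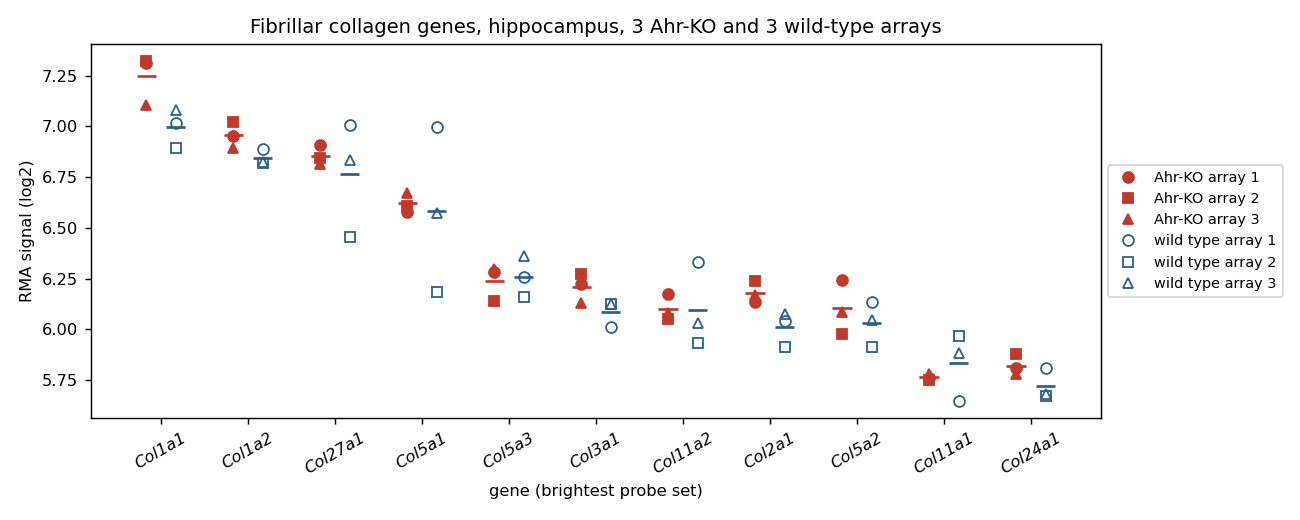
Log2 RMA signals of the 11 fibrillar collagen genes on 3 Ahr-KO arrays (filled, left) and 3 wild-type arrays (open, right), with a bar at each genotype's mean. Col1a1, Col1a2, Col2a1 and Col3a1 have all Ahr-KO values above all wild-type values, by narrow margins, and wild-type array 2 (open square) is lowest for 8 of the 11 genes.

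Sequences upstream of collagen genes were examined because the receptor encoded by Ahr binds DNA. Bound to its partner ARNT, it recognises a short element with the core GCGTG. RefSeq promoter windows of assembly GRCm38.p6 were matched by symbol for 35 of the 44 genes, which gave 38 windows, and the 250 bases before each start were searched on both strands. The sequences below belong to the 4 collagens without overlap between genotypes whose matched window lies outside every annotated gene. Capitals mark the CCAAT box (or ATTGG on the other strand), the TATA box TATAAA (or TTTATA) and the receptor's core GCGTG (or CACGC), which none of these 4 holds. They run 5′ to 3′ along the gene, from chr6:4505368-4505617 (plus strand), chr1:45311288-45311537 (plus), chr9:108953336-108953585 (plus) and chr19:47692043-47692292 (minus).
Col1a2: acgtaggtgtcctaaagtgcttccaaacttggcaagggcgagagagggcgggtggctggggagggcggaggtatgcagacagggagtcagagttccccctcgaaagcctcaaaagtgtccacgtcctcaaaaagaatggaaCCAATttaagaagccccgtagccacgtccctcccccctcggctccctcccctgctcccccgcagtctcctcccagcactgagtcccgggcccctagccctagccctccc
Col3a1: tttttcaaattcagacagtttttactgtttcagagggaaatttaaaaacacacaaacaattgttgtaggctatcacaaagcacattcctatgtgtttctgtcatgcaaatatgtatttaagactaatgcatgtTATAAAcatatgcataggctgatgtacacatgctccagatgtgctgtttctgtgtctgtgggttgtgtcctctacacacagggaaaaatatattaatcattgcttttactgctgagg
Col7a1: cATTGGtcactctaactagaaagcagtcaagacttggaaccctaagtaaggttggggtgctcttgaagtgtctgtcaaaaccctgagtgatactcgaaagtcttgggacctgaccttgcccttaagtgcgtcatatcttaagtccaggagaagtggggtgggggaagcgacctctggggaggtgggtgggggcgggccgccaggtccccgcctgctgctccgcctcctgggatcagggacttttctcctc
Col17a1: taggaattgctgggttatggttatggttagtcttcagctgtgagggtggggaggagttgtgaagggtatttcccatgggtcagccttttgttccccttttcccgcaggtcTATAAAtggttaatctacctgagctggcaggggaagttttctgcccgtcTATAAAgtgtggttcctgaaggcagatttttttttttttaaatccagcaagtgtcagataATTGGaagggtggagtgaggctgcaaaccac

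The core GCGTG was found in 8 of the 38 collagen windows (21.1%), against 28.2% of all 32851 windows of the same length. A stricter form, TNGCGTG, was in 0 of the 38, against 4.1% of all. CCAAT was in 13 (34.2%, against 33.8%), TATAAA in 5 (13.2%, against 12.4%) and the GC box GGGCGG, or CCGCCC, in 22 (57.9%, against 32.7%). Each TNGCGTG also holds a GCGTG, and no other of these motifs contains another. Of the 8 genes with the core, 6 had the higher mean in Ahr-KO, with a median difference of 0.03 log2, while 21 of the 27 matched genes without it had a higher mean and the median was 0.07. These are letter matches in short windows and no measure of binding.

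Basement membrane collagens had a median difference of 0.04 log2 and a higher mean in Ahr-KO for 6 of 8 genes. An unadjusted p under 0.05 was reached by 0, against 6.18% of all genes in either direction. The median was -0.0303 without Ahr-KO array 1 and -0.0113 without both choroid-rich arrays, with a higher mean for 4 of 8 genes in the last case. Col4a1 and Col4a2 encode the chains of the common type IV network of brain capillaries, and lie head to head on chromosome 8, where their RefSeq starts are 21 bases apart on opposite strands. Col4a1 read 6.88, 6.75 and 6.72 log2 in Ahr-KO, against 6.89, 6.86 and 6.90 in wild type. The wild-type values were tight, and Ahr-KO arrays 2 and 3 lay below them, with a difference of -0.11 ± 0.08 (SE; limma adjusted p = 0.847). Col4a2 read 6.96, 6.77 and 6.77 in Ahr-KO, against 6.96, 6.90 and 6.56 in wild type, a difference of 0.03 ± 0.12 (SE). The neighbours did not move as a pair on wild-type array 3, which was the highest of the 6 for Col4a1 and the lowest for Col4a2. Col4a2 changed sign without Ahr-KO array 1 (-0.03) or wild-type array 3 (-0.09).

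Col4a3 and Col4a4 share a head-to-head locus on chromosome 1, and their chains join that of Col4a5 in the type IV network of kidney glomeruli. Col4a3 read 5.56, 5.31 and 5.21 log2 in Ahr-KO, against 5.38, 5.27 and 5.26 in wild type, and Ahr-KO array 1 stood above the rest, with a difference of -0.06 without both choroid-rich arrays. Col4a4 read 5.64, 5.59 and 5.40 in Ahr-KO, against 5.36, 5.51 and 5.38 in wild type, with the 2 highest values in Ahr-KO. Their differences were 0.06 ± 0.10 and 0.12 ± 0.09 (SE; limma adjusted p = 0.952 and 0.848). Col4a5 and Col4a6, the X-linked pair of the family, differed by 0.04 ± 0.09 and 0.0148 ± 0.07 (SE; -0.0357 for Col4a6 without both choroid-rich arrays), over ranges of 5.54 to 5.76 and 5.01 to 5.15 log2 on the 6 arrays. All of these 4 averaged below the median signal. Col15a1 and Col18a1 encode the collagens that attach basement membranes to the tissue around them, and a fragment of the Col18a1 chain is endostatin, an inhibitor of vessel growth. Col15a1 read 5.55, 5.52 and 5.45 in Ahr-KO, against 5.38, 5.54 and 5.32 in wild type (0.09 ± 0.08, SE; limma adjusted p = 0.881). Col18a1 differed by -0.04 ± 0.11 (SE), and its lowest value was 5.11 on Ahr-KO array 3, while wild-type array 3 held the highest, 5.50.

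**Figure D4:**
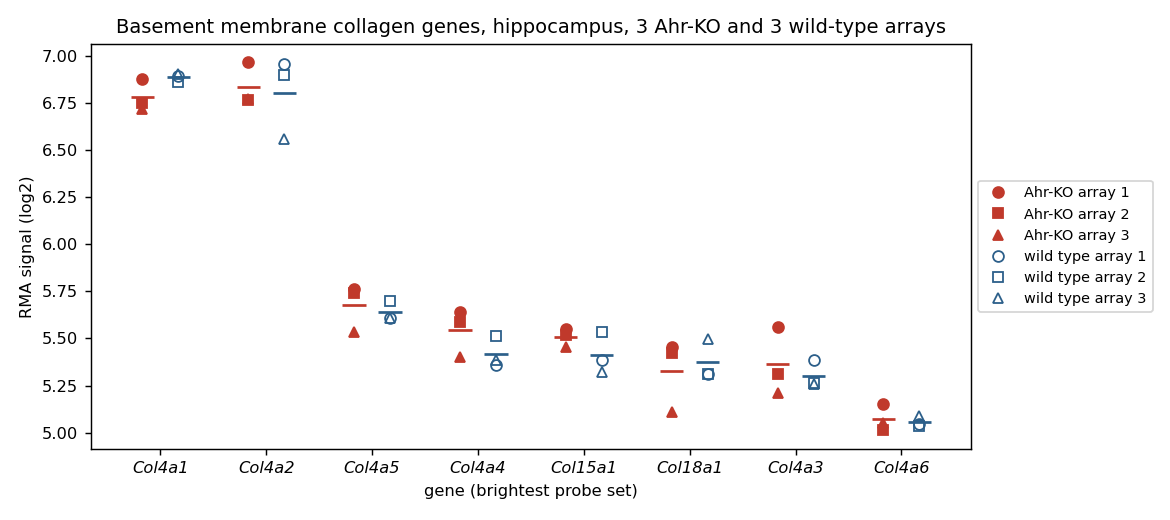
Log2 RMA signals of the 8 basement membrane collagen genes on 3 Ahr-KO arrays (filled, left) and 3 wild-type arrays (open, right), with a bar at each genotype's mean. The genotypes overlap for every gene, and Ahr-KO array 1 (filled circle) is highest for 6 of the 8.

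Laminins, nidogens and basement membrane proteoglycans are the partners of type IV collagen. Of their 14 measured genes, 9 had a higher and 5 a lower mean in Ahr-KO. At an unadjusted p under 0.05, 1 was higher and 1 lower (14.3% together, against 6.18% of all genes). The adjusted threshold was passed by 0, and the median difference was 0.0173 log2. Nid2, a nidogen that bridges laminin and type IV collagen, read 6.67, 6.36 and 6.44 in Ahr-KO, against 5.95, 6.21 and 6.25 in wild type. The genotypes did not overlap, and the difference was 0.36 ± 0.11 (SE; limma adjusted p = 0.770). Lama3, a laminin chain best known from epithelia, read 6.18, 6.36 and 6.15 in Ahr-KO, against 6.55, 6.40 and 6.63 in wild type. It was lower on every Ahr-KO array (-0.29 ± 0.09, SE; limma adjusted p = 0.770). Lama4, the laminin chain of vessel walls, differed by -0.24 ± 0.15 (SE) with overlap.

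Among the 25 other collagens, 19 had a higher mean in Ahr-KO. At an unadjusted p under 0.05, 2 were higher (8%, against 3.53% of all genes) and 0 were lower (against 2.65%). The adjusted threshold was passed by 0. The median difference was 0.05 log2, or -0.0184 without Ahr-KO array 1 and 0.0062 without both choroid-rich arrays. Col7a1, the anchoring fibril that ties the epidermal basement membrane to the dermis, read 5.92, 5.91 and 5.95 in Ahr-KO, against 5.81, 5.75 and 5.64 in wild type. Col28a1, a beaded collagen found around peripheral nerve in mice, read 4.75, 4.86 and 4.80 in Ahr-KO, against 4.61, 4.71 and 4.47 in wild type. Neither gene overlapped between the genotypes. Col7a1 differed by 0.19 ± 0.07 (SE; limma unadjusted p = 0.036, adjusted p = 0.797). For Col28a1 the difference was 0.21 ± 0.08 (SE; limma unadjusted p = 0.0393, adjusted p = 0.806). Without both choroid-rich arrays these differences were 0.20 and 0.29, and the signals of both genes were below the median of all genes.

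Transmembrane collagens sit in the cell membrane with their helix outside. Col17a1, of the epithelial hemidesmosome, read 5.55, 5.64 and 5.60 log2 in Ahr-KO, against 5.44, 5.40 and 5.53 in wild type, without overlap (0.15 ± 0.07, SE; limma adjusted p = 0.817). Col25a1, a neuronal collagen whose shed form was found in amyloid plaques, read 8.09, 7.69 and 7.91 in Ahr-KO, against 7.68, 8.09 and 7.71 in wild type. The choroid-rich array of each genotype thus held its highest 2 values, and the genotypes differed by 0.07 ± 0.14 (SE). Col23a1 read 7.64, 7.70 and 7.65 in Ahr-KO, against 7.58, 7.55 and 7.66 in wild type, a difference of 0.07 ± 0.07 (SE). Both of these lay above the median signal of all genes. Col13a1, of the neuromuscular junction and other adhesion sites, and Col26a1, a small secreted collagen, differed by 0.06 ± 0.09 and 0.03 ± 0.08 (SE), or -0.0492 and -0.0417 without both choroid-rich arrays.

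Type VI collagen forms beaded filaments next to basement membranes from the chains of Col6a1, Col6a2 and Col6a3 or related chains. Col6a1 read 8.32, 7.64 and 7.80 log2 in Ahr-KO, against 8.04, 7.94 and 7.66 in wild type. Col6a2, its neighbour on chromosome 10, read 7.36, 7.22 and 7.17 in Ahr-KO, against 7.40, 6.97 and 7.25 in wild type. Ahr-KO array 1 and wild-type array 1 were the highest 2 for both genes. Their differences were 0.04 ± 0.18 and 0.04 ± 0.12 (SE), and -0.13 each without both choroid-rich arrays. A dimmer probe set of Col6a1, with a mean of 4.73 log2, differed by -0.13 ± 0.09 (SE), with Ahr-KO values of 4.54, 4.69 and 4.78 against wild-type values of 4.70, 4.89 and 4.80. Col6a3, Col6a4, Col6a5 and Col6a6 differed by 0.02, -0.18, -0.0024 and 0.08 log2, all with overlap, and Col6a3 turned to -0.0443 without both choroid-rich arrays.

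Type VIII collagen builds the hexagonal lattice under corneal and vascular endothelium, and Col8a1 varied most among the collagens. It read 6.94, 6.12 and 5.35 log2 in Ahr-KO, against 6.07, 5.96 and 5.92 in wild type. Within Ahr-KO the highest array exceeded the lowest by 1.59 log2, a range over the 6 arrays that 0.0992% of all genes reached, while the 3 wild-type mice lay within a narrow band. The difference of 0.15 ± 0.33 (SE) was -0.25 without Ahr-KO array 1, 0.54 without Ahr-KO array 3 and -0.26 without both choroid-rich arrays. Wild-type array 2, the choroid-rich array of its genotype, was not high for Col8a1. Its partner Col8a2 read 5.86, 5.73 and 5.59 in Ahr-KO, against 5.55, 5.84 and 5.71 in wild type, with both choroid-rich arrays on top. This arrangement, with those arrays holding the highest 2 values, was seen for 5 of 44 collagens, namely Col15a1, Col9a3, Col25a1, Col8a2 and Col6a5, while 7.11% of all genes showed it.

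Fibril-associated collagens coat other fibrils rather than forming them. Of the 9 measured, 5 had a higher mean in Ahr-KO, 0 had an unadjusted p under 0.05, and the differences ran from -0.09 log2 for Col12a1 to 0.15 for Col20a1. Col9a3, a chain of the type IX collagen of cartilage, read 6.84, 6.37 and 6.43 in Ahr-KO, against 6.40, 6.57 and 6.38 in wild type, high on the choroid-rich array of each genotype. Col9a2, a chain of the same type, was the steadiest collagen, with 7.40, 7.38 and 7.36 in Ahr-KO, against 7.39, 7.42 and 7.41 in wild type. Col14a1, which decorates type I fibrils, read 4.98, 4.88 and 4.70 in Ahr-KO, against 5.08, 4.55 and 5.02 in wild type, lowest on wild-type array 2. Its difference of -0.03 ± 0.15 (SE) was -0.26 without both choroid-rich arrays (limma adjusted p = 0.821, the adjusted p ranging from 0.821 to 0.994 over its alternatives). Col19a1, made by a set of forebrain interneurons in mice, differed by -0.0137 ± 0.11 (SE), and Col9a1, Col16a1 and Col22a1 by 0.05, 0.03 and 0.11 log2. Col10a1, the network collagen of growth plate cartilage, differed by 0.11 ± 0.09 (SE).

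**Figure D5:**
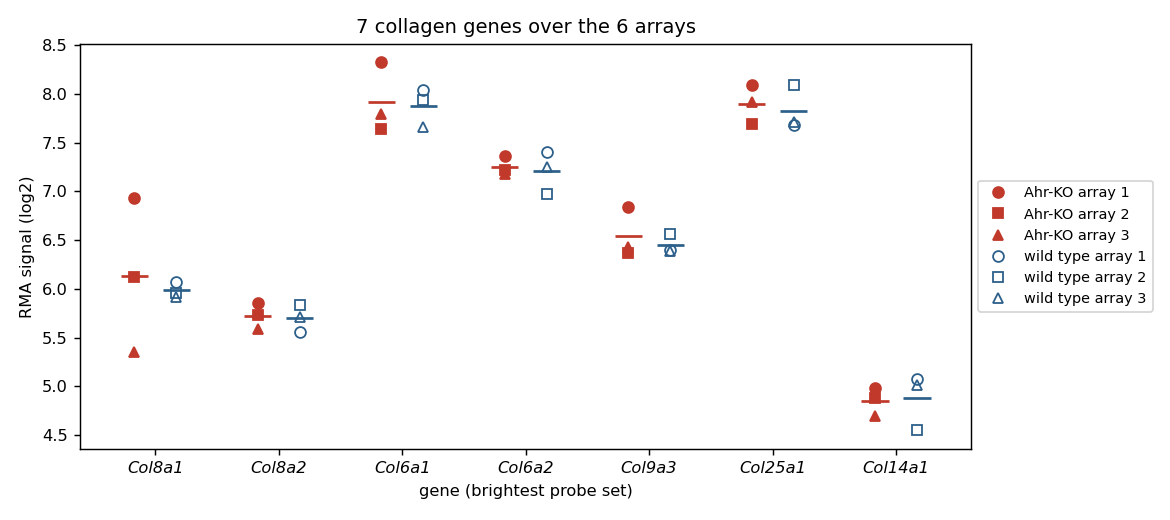
Log2 RMA signals of 7 collagen genes, chosen after their values were seen for a wide spread or a pattern shared with other genes, on 3 Ahr-KO arrays (filled, left) and 3 wild-type arrays (open, right), with a bar at each genotype's mean. Col8a1 spreads over 1.59 log2 within Ahr-KO, and Col8a2, Col9a3 and Col25a1 are highest on Ahr-KO array 1 and wild-type array 2.

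The machinery that makes, binds and breaks down collagen was measured in 4 lists, in which 0 genes passed the adjusted threshold. Of 18 folding and modification genes 6 had a higher and 12 a lower mean in Ahr-KO. At an unadjusted p under 0.05, 0 were lower and 1 was higher (5.56%, against 3.53% of all genes). That gene was Crtap, a member of the complex that hydroxylates prolines in the collagen chain, which read 7.85, 7.69 and 7.78 log2 in Ahr-KO, against 7.56, 7.47 and 7.46 in wild type. Crtap lay above wild type on every Ahr-KO array (0.28 ± 0.08, SE; limma adjusted p = 0.770). P4hb, a subunit of prolyl 4-hydroxylase, and Pepd, a dipeptidase that recycles proline, differed by -0.13 ± 0.08 and -0.13 ± 0.09 (SE). Of 13 genes of procollagen processing and crosslinking 7 had a higher and 6 a lower mean. An unadjusted p under 0.05 was reached by 0, against 6.18% of all genes in either direction. The lysyl oxidase-like enzymes Loxl4 and Loxl1, which crosslink fibrils, stood at 0.17 ± 0.08 and 0.22 ± 0.15 (SE), and Bmp1, a protease that trims procollagen, at -0.15 ± 0.10.

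Of 9 collagen receptors 7 had a higher and 2 a lower mean in Ahr-KO. At an unadjusted p under 0.05, 0 were higher and 1 was lower (11.1%, against 2.65% of all genes). Itgb1, the beta chain of the collagen-binding integrins, read 8.32, 8.39 and 8.51 log2 in Ahr-KO, against 8.52, 8.62 and 8.66 in wild type, lower on every Ahr-KO array (-0.20 ± 0.08, SE; limma adjusted p = 0.806). Its partner Itga2 differed by 0.32 ± 0.14 (SE) with overlap at a low signal, and Itga1 by 0.16 ± 0.10. Of 12 collagenases, gelatinases and inhibitors 10 had a higher and 2 a lower mean. At the unadjusted threshold 0 were lower and 1 was higher (8.33%, against 3.53% of all genes). Timp3, an inhibitor that binds to the matrix, read 9.63, 9.69 and 9.60 in Ahr-KO, against 9.50, 9.30 and 9.46 in wild type, without overlap (0.22 ± 0.08, SE; limma adjusted p = 0.796). Timp1 and Timp4 differed by 0.17 ± 0.09 and -0.12 ± 0.07 (SE).

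Markers of cells that can make collagen had 0 genes past the adjusted threshold. All 16 meningeal and perivascular fibroblast markers were measured, of which 8 had a higher and 8 a lower mean in Ahr-KO. At an unadjusted p under 0.05, 1 was higher and 1 lower (12.5% together, against 6.18% of all genes). The summed linear signal of the 16 was 3464 to 4588 in Ahr-KO and 3713 to 4211 in wild type. Their gene-centred mean was highest on Ahr-KO array 1 (0.13 log2), the array with the highest collagen values, and lowest on wild-type array 2 (-0.10). Ogn, osteoglycin, a small proteoglycan of fibroblasts, read 7.78, 7.46 and 7.45 in Ahr-KO, against 8.09, 7.87 and 8.54 in wild type. It was lower on every Ahr-KO array, by more than any collagen differed in either direction (-0.60 ± 0.17, SE; limma adjusted p = 0.770). Islr, a fibroblast surface protein, was higher on every Ahr-KO array (0.26 ± 0.10, SE; limma adjusted p = 0.797). Decorin (Dcn), which binds type I fibrils, read 10.43, 9.18 and 10.09 in Ahr-KO, against 9.44, 10.32 and 10.10 in wild type, with its highest 2 values on the choroid-rich arrays. All 12 endothelial markers were measured, of which 9 had a higher and 3 a lower mean. At an unadjusted p under 0.05, 3 were higher (25%, against 3.53% of all genes) and 0 were lower (against 2.65%). The 3 were Vwf (0.49 ± 0.12, SE; limma adjusted p = 0.769), Abcb1a (0.19 ± 0.08, SE) and Slco1a4 (0.26 ± 0.11, SE). Those with a lower mean were Cldn5 (-0.23 ± 0.10, SE), Tie1 and Esam. The summed linear signal of the 12 was 2582 to 2766 in Ahr-KO and 2357 to 2586 in wild type. Of the 11 mural markers 8 had a higher mean. At the unadjusted threshold 0 were lower and 1 was higher (9.09%, against 3.53% of all genes), namely Tagln of smooth muscle (0.38 ± 0.13, SE, limma adjusted p = 0.770). The part of these cells in the collagen values was not tested.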

How the data were processed

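RNA of 6 hippocampi, 3 Ahr-KO and 3 wild type, was extracted with Trizol, labelled with the GeneChip WT PLUS kit and hybridised to 1 Affymetrix array each, as the labels' protocols state. As deposited, each value is a log2 signal, made with RMA in Affymetrix Expression Console per the submitters' processing notes, and their range fits that scale. The build behind the probes is not given in the sources used here, nor are scan batches. Of 41345 probe sets, 23521 had 1 symbol, 1814 several and 16010 none in the platform annotation. Symbols were updated through Entrez identifiers (23328 matched RefSeq), and the probe set with the highest mean stood for each of 22180 genes.

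Every gene was fitted with limma 3.58.1 in R 4.3.3, Ahr-KO against wild type, two-sided, with Benjamini-Hochberg adjustment over all genes and a threshold of 0.05. The fit was tested on simulated data. Upper quartiles of the arrays lay between 7.67 and 7.70 log2, and the number of arrays limits precision. The labels speak of independent RNA replicates. Array weights, an intensity trend, quantile normalization, median centring, a filter on dim genes, means of probe sets, a replicate block and omitted arrays were the alternatives. Genes named by rule were, in each class, the 3 brightest, the 3 with the lowest p and head-to-head type IV genes, and from each list the 3 with the lowest p and the brightest marker. Some of these are given without values per array or are not described, and Cldn5 lay outside the rule. The remaining collagens given per array, such as Col8a1, were chosen after their values were seen. Members and lists were chosen with earlier results of these data known. Col21a1 and 1 probe set shared between genes were not analysed here.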

Additional observations from a re-analysis of the deposited data

How the results depend on the processing

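In 14 alternatives, 79 genes were followed and 0 of their 1067 values passed the adjusted threshold, so the absence of collagen calls held under each of them. Of the 44 collagens 19 kept the sign of their difference in every alternative (for the 7 without overlap, omitting 1 array cannot turn it), and 82 of the 1067 values turned it. Among all genes 2 passed with an intensity trend, against 0 otherwise. The 3 collagens higher at an unadjusted p under 0.05 became 1 with the intensity trend, with quantile normalization, without the dimmer genes (11 collagens left) and without both choroid-rich arrays, and 0 to 3 with 1 array left out. The count lower was 1 without both choroid-rich arrays (Col14a1) and 0 to 1 with 1 array left out. With the mouse number as a replicate block the count higher was 0. Deviations of same-numbered mice from their genotype means correlated by -0.15, -0.22 and 0.05, which cannot show whether these mice shared more than a number. The fibrillar median was -0.0020 without both choroid-rich arrays, and with 1 array left out it ran from 0.0125 to 0.1341, the basement membrane median from -0.0303 to 0.0889 and the other types' from -0.0184 to 0.0726. The 34 of 44 collagens with a higher mean became 21 without Ahr-KO array 1 and 22 without both choroid-rich arrays. In simulations with genes changed by 0.5, 1 or 1.5 log2, 69.7% of those changed by 0.5 were recovered at 3 arrays a genotype. Many larger changes in the same runs ease the Benjamini-Hochberg threshold for the rest. In the main fit of the real data 0 genes passed, so 69.7% is no recovery rate for these collagens. The simulated noise was independent and normal, with each gene's moderated variance. Such variances are more alike than measured ones, so this share can be too high for real arrays. In these data Ahr, at -0.78 log2 without overlap, was not called (limma adjusted p = 0.0914 to 0.972 over the alternatives), so differences above 0.5 log2 can be missed too. The cause of the changes was not tested.

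Differences that turned sign, in log2, were Col4a5 -0.0024, Col8a1 -0.0576, Col8a2 -0.0264, Col6a3 -0.0088, Rgs5 0.0235, Ttr -0.3627 with array weights, Col4a6 -0.0218, Col11a2 -0.0027, Col9a2 0.0016, Col6a3 -0.0128, Camk2a -0.0377 with quantile normalization, Col6a1 -0.0414, Rgs5 0.1291 with the mean of probe sets, Col1a2 -0.0074, Col6a1 -0.1275 with the second probe set and Col27a1 -0.0919, Col6a1 -0.1273, Col4a3 -0.0590, Col4a6 -0.0357, Col5a2 -0.0576, Col5a1 -0.1423, Col11a2 -0.1134, Col13a1 -0.0492, Col8a1 -0.2608, Col26a1 -0.0417, Col6a2 -0.1286, Col6a3 -0.0443, Ttr -0.1139, Camk2a -0.0069 without both choroid-rich arrays. With 1 array left out, the ranges that crossed 0 were Camk2a -0.0153 to 0.0324, Col11a2 -0.0771 to 0.1224, Col14a1 -0.1953 to 0.0693, Col16a1 -0.0603 to 0.0950, Col18a1 -0.1066 to 0.0650, Col19a1 -0.1153 to 0.0602, Col25a1 -0.0226 to 0.2047, Col26a1 -0.0184 to 0.0639, Col27a1 -0.0648 to 0.2106, Col4a2 -0.0933 to 0.1067, Col4a3 -0.0405 to 0.1339, Col4a5 -0.0014 to 0.1128, Col4a6 -0.0259 to 0.0445, Col5a1 -0.1628 to 0.2415, Col5a3 -0.0689 to 0.0305, Col6a1 -0.1571 to 0.1862, Col6a2 -0.0727 to 0.1411, Col6a3 -0.0231 to 0.0870, Col6a5 -0.0719 to 0.0586, Col8a1 -0.2489 to 0.5447, Col8a2 -0.0464 to 0.0968, Col9a3 -0.0517 to 0.1823, Dcn -0.3167 to 0.3119, Folr1 -0.1742 to 0.5787, Kcne2 -0.0699 to 0.5900, Rgs5 -0.1020 to 0.1269, Sostdc1 -0.0935 to 0.5909, Ttr -1.3395 to 1.3173.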
